A study of Mus musculus with 21 samples.

Results

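The genes described here are 9 transcription factors of the mouse primitive streak: T, Evx1, Mixl1, Mesp1, Tbx6, Eomes, Gsc, Foxa2 and Lhx1. They were taken by gene symbol from a list of members, and all 9 were found among the 33861 genes of the deposited count table. Their RNA was followed in 21 samples, which are 12 cultures of pluripotent mouse cells and 9 epiblasts. The series is titled as one on stem cells with features of formative pluripotency, a state placed between naive and primed pluripotency. Formative stem (FS) cells came as 2 lines in a medium named A3XR, with passages 10, 11 and 18 of line FS1 and passages 12, 13 and 16 of line FS2. Epiblast stem cells (EpiSCs) whose titles carry the name E14 came in a medium named AF at passages 14, 15 and 16, and in a medium named AFX at the same passage numbers. Each culture sample was 1000 cells. Epiblasts were single embryos of the stages E5.0 (embryos 1, 2 and 4), E5.5 (embryos 1 to 3) and E6.0 (embryos 1 to 3), and another label calls the last group E6.5. The labels do not say what the media contain, and they give no mouse strain. Passages of a line are not independent derivations, and FS cells and EpiSCs differ in line as well as medium, so line and medium cannot be told apart in those comparisons. AF and AFX carry the same line name.

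The primitive streak is the site on the posterior side of the epiblast where cells leave to form mesoderm and definitive endoderm. NODAL signals, acting through SMAD and FOXH1 proteins, and WNT signals, acting through beta-catenin and TCF/LEF proteins, induce it. T and Evx1 belong to the posterior and middle streak, Mesp1 and Tbx6 to the mesoderm that leaves it, Mixl1 and Eomes to much of the streak and its mesendoderm, and Gsc, Foxa2 and Lhx1 to its anterior end, where the node and endoderm arise. Eomes, Foxa2, Gsc and Lhx1 are also expressed in visceral endoderm, an extraembryonic layer around the epiblast.

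In GENCODE M21, on build GRCm38 (mm10), the 9 genes are protein-coding and lie at chr17:8434423-8442496 (T), chr6:52313498-52318378 (Evx1), chr1:180693043-180697034 (Mixl1), chr7:79792241-79793788 (Mesp1), chr7:126781483-126785560 (Tbx6), chr9:118478212-118486132 (Eomes), chr12:104471209-104473330 (Gsc), chr2:148042877-148046969 (Foxa2) and chr11:84518284-84525535 (Lhx1). Evx1 overlaps an antisense gene, Evx1os, and Eomes overlaps Gm33460 on the other strand. Whether counting used strand is not given in the sources used here, so reads of these pairs may not be told apart. RefSeq promoter windows on GRCm38.p6, the 250 bases before a start, were at hand for 8 of the 9 genes, with 3 windows for Foxa2 and 10 in all. The windows of T, Foxa2 and Lhx1, which were high together in AF cells, and of Eomes, which was counted in all samples, are given. Capitals mark matches to short motifs on either strand, read 5′ to 3′ along the gene.
T (plus strand, chr17:8434173-8434422): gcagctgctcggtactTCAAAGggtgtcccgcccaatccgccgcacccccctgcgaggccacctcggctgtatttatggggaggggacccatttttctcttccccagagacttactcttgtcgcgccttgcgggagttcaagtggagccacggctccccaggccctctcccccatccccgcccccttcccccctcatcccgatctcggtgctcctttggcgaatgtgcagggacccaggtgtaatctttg
Foxa2 (minus strand, the window farthest upstream, chr2:148046970-148047219): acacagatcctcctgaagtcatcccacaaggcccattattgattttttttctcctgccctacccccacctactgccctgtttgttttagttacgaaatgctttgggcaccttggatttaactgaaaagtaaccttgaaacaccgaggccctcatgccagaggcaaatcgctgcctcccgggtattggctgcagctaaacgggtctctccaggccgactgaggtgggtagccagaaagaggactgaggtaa
Lhx1 (minus strand, chr11:84525535-84525784): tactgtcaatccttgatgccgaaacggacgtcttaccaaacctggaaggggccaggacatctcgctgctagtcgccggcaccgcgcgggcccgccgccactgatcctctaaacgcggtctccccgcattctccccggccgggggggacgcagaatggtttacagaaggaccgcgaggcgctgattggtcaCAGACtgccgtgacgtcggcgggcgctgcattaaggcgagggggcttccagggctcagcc
Eomes (plus strand, chr9:118477939-118478188): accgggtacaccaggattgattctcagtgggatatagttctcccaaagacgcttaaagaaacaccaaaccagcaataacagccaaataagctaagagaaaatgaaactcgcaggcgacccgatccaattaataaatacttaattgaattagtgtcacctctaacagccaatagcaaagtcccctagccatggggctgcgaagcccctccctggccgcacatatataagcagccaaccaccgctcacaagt

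The motifs searched were CTTTGA for TCF/LEF, CAGAC for SMAD, AATNNACA for FOXH1, AGGTGTGA for T-box proteins, TAATCC for bicoid-type homeodomains and TGTTTNC for forkhead proteins, and no match of one overlapped a match of another. The T window held 1 TCF/LEF match, beginning 234 bases before the start, and the Lhx1 window held 1 SMAD match at 60 bases. The Foxa2 window 1 and the Eomes window held none. TCF/LEF matches were in 2 of the 10 windows of these genes (T and Mesp1) and in 13.8% of all 32851 windows, and SMAD matches were in 4 of 10 (Lhx1, Evx1, Mesp1 and Tbx6) and in 42.2%. Forkhead matches were in 1 of 10 (Evx1) and in 17.8%. None of the 10 held a FOXH1, T-box or bicoid-type match, which were in 10.9%, 1.12% and 6.25% of all windows. These are letter matches in a short window and say nothing of binding.

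Total counts ran from 5827093 to 15916800 a sample, so 3 counts, taken as the floor of detection, stood for 0.171 to 0.561 CPM, the count scaled to the sample's TMM-adjusted total (its effective library size). A set of 5 mitochondrial ribosomal RNA and other abundant loci took 19.9 to 31.6% of the counts. All 8 epiblast pluripotency genes checked, Pou5f1 and Nanog among them, had at least 5 counts in each of the 21 samples. Visceral endoderm markers, 12 genes, summed to 326 to 885 CPM at E5.0, 45.7 to 90.3 at E5.5, 26.7 to 36.4 at E6.0 and 7.31 to 42.0 in culture. Feeder fibroblast markers, 8 genes, summed to 240.8 to 287.3 CPM in AF, 41.8 to 66.3 in AFX and 33.4 to 67.9 in FS. In bulk samples, a smaller share of expressing cells and less RNA per cell cannot be told apart.

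Eomes, a T-box factor needed for cells to leave the epiblast, was the one member well above the floor in all 21 samples, from 18.99 to 189 CPM. Per length, on the RPKM scale, which is CPM per kilobase of exon, Eomes had the highest mean level of the 9 genes in every group but AF. In AF its 20.55 ± 10.36 RPKM (SD, n = 3) stood beside Foxa2 at 26.8 ± 16.5, T at 24.7 ± 19.7, Lhx1 at 24.5 ± 15.8 and Gsc at 24.25 ± 11.35. These 5 levels in AF do not differ beyond their spread. At the other end, Mesp1 was at or below 3 counts in 19 of 21 samples, with 6.71 CPM in FS1 passage 10 and 1.49 CPM in E6.0 embryo 2.

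**Figure D1:**
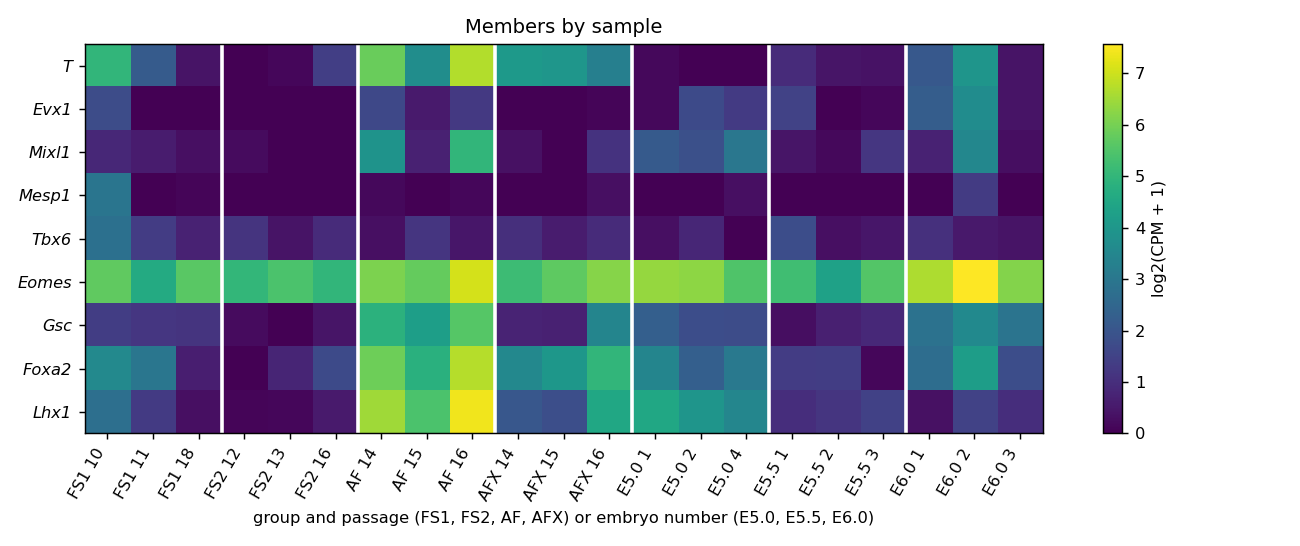
Level of each of the 9 genes (one line of cells per gene) in each of the 21 samples (one column per sample), as log2(CPM + 1) on the colour scale; white lines separate the groups. Eomes is bright across all columns, the AF columns are bright for T, Gsc, Foxa2 and Lhx1, and FS1 passage 10 and E6.0 embryo 2 are brighter than their neighbours for most genes.

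FS cells held less RNA than AF EpiSCs of the anterior streak genes Gsc, Foxa2 and Lhx1 and of Mixl1, and less Eomes by a smaller factor. Gsc, a homeobox gene of the gastrula organizer, was at 28.2, 17.8 and 46.25 CPM in AF passages 14, 15 and 16. In FS1 it was at 1.60, 1.32 and 1.22 CPM and in FS2 at 0.160, 0 and 0.343 CPM. All 6 FS samples thus lay below all 3 AF samples, and the log2 fold change was -5.36 ± 0.90 (± SE throughout; adjusted p = 0.00196). Lhx1, a LIM homeobox gene of the anterior mesendoderm, was at 89.2, 41.6 and 168.9 CPM in AF. It reached 5.81, 1.44 and 0.243 CPM in FS1 and 0.0802, 0.104 and 0.457 CPM in FS2. The groups did not overlap, and the highest FS sample was passage 10 of FS1. Foxa2, a forkhead factor of node and endoderm, was at 58.8, 26.9 and 104.6 CPM in AF, at 10.9, 6.82 and 0.57 in FS1 and at 0, 0.729 and 2.23 in FS2, again without overlap. On the log2 scale Lhx1 was at -6.31 ± 1.05 (adjusted p = 0.00244) and Foxa2 at -4.23 ± 0.94 (0.0111).

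Mixl1, a paired-type homeobox gene of the streak, was uneven in AF, with 13.7, 0.63 and 30.65 CPM in passages 14, 15 and 16. It was at 0.801, 0.479 and 0.243 CPM in FS1 and at 0.160, 0 and 0 in FS2, close to the floor. AF passage 15 lay within the FS range, and Mixl1 fell by 5.83 ± 1.08 on the log2 scale (adjusted p = 0.00292). Eomes was at 67.1, 54.5 and 134.6 CPM in AF against 23.94 to 51.7 CPM in the 6 FS samples, which all lay lower. Its log2 fold change was -1.16 ± 0.32 (adjusted p = 0.0229).

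T, the T-box factor Brachyury of streak mesoderm and notochord, was at 55.98, 12.1 and 103.3 CPM in AF. It was at 30.75, 3.47 and 0.325 CPM in FS1 and at 0, 0.104 and 1.66 CPM in FS2. FS1 passage 10 lay above AF passage 15, and the difference of -3.29 ± 1.31 did not pass (adjusted p = 0.114). Evx1, an even-skipped-type homeobox gene, was at 2.1, 0.45 and 1.4 CPM in AF and, of the 6 FS samples, was counted only in FS1 passage 10, at 2.40 CPM (adjusted p = 0.371). Evx1os was counted beside it in AF, at 1.48, 0.270 and 1.96 CPM. Tbx6, a T-box factor of paraxial mesoderm, was at 0.247 to 1.26 CPM in AF and 0.3125 to 6.01 CPM in FS, a log2 fold change of 1.43 (adjusted p = 0.258). Mesp1, a helix-loop-helix factor of nascent and cardiac mesoderm, passed the filter on low counts in no comparison.

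Of the 9 genes, 8 could be tested between FS and AF. Of these, 5 were lower in FS (Mixl1, Eomes, Gsc, Foxa2 and Lhx1) and none was higher. Over all 16052 genes tested, 10.6% were called lower and 8.86% higher. Of the 9, 4 had all FS samples below all AF samples, and 11.1% of all genes did. The median log2 fold change was -3.76 over the 8 genes and 0.02 over all genes. Gsc, Lhx1 and Mixl1 stayed past the threshold in each of the 9 fits that left out 1 sample. Without AF passage 16, Eomes was at -0.67 (adjusted p = 0.15) and Foxa2 at -3.66 (0.0533), and without FS1 passage 10 T was called at -5.75 (0.00252). With no filter on low counts the Eomes call was lost (-1.16, 0.0706). Markers of other cell types were also higher in AF than in FS, with 5 of 7 tested feeder markers, 3 of 5 extraembryonic ectoderm markers and 2 of 3 visceral endoderm markers (Gata4 and Dab2) called, and their part in these differences was not tested.

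**Figure D2:**
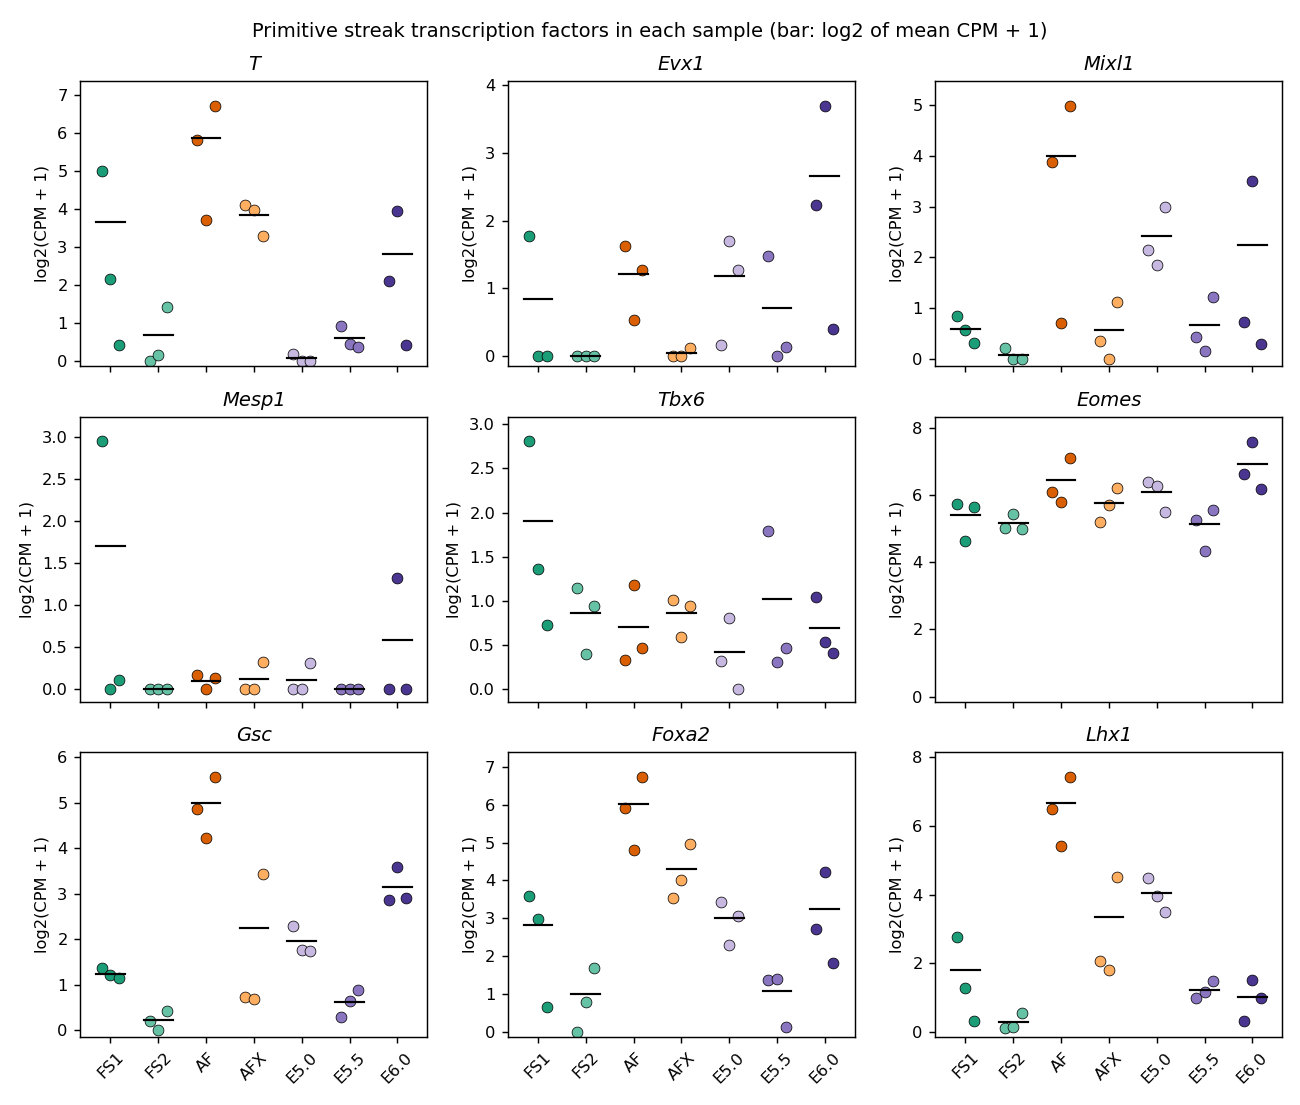
Level of each gene as log2(CPM + 1) on the vertical axis, with one point per sample and a bar at the log2 of the group's mean CPM + 1, for the 7 groups on the horizontal axis; each panel has its own vertical scale. For Gsc, Foxa2, Lhx1 and Eomes all 3 AF points lie above all 6 FS points, and for Mixl1 and T one AF point lies within the FS range.

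AFX EpiSCs had levels between FS and AF for several of these genes, but the passages differed widely and few differences passed. Gsc was at 0.676, 0.623 and 9.92 CPM in AFX passages 14, 15 and 16, and Lhx1 was at 3.18, 2.49 and 21.8 CPM. Both were below all AF samples, and both were carried by passage 16: without it their AFX means were 0.65 in place of 3.74 CPM for Gsc and 2.84 in place of 9.14 CPM for Lhx1. Foxa2 was at 10.7, 15.1 and 30.4 CPM, also highest at passage 16. T went the other way, with 16.1, 14.8 and 8.67 CPM, and was lowest at passage 16. Passage 16 was the highest AFX sample for 7 of the 9 genes and for 34.2% of 14933 genes compared. That share leaves out genes with few counts. Mixl1, Evx1 and Mesp1, among the 7, had 18, 1 and 3 counts in AFX and would be left out. Passage 16 was also the highest AFX sample for endoderm genes, at 30.3 CPM in sum against 6.09 and 7.73. It was highest for signal antagonists, at 186.3 against 49.1 and 42.0, and for extraembryonic ectoderm markers, at 19.5 against 8.11 and 4.49. Of these markers Wnt7b alone reached 13.25 CPM in AFX, above the whole sum of either other passage. This 1 gene made up most of the sum of passage 16. Visceral endoderm markers were between 14.46 and 16 CPM in the 3 AFX samples, and the part of other cell types was not tested.

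Against AF, 1 of the 8 tested genes was called in AFX, Mixl1, which was lower, and 4.42% of all 16052 genes were called lower. Mixl1 was at 0.2705, 0 and 1.17 CPM in AFX, and its AFX and AF samples overlapped. Its log2 fold change of -4.86 ± 1.32 (adjusted p = 0.0416) missed the threshold in 5 of the 6 fits without 1 sample, at adjusted p from 0.058 to 0.143. Of the 9 genes, 3 had all AFX samples below all AF samples (Gsc, Lhx1 and Evx1), and 13.5% of all genes did. Gsc was at -3.01 ± 1.01 (adjusted p = 0.1) and, without AFX passage 16, at -5.52 and called (0.00671). Lhx1 was at -3.43 ± 1.14 (0.105), Foxa2 at -1.75 (0.391), T at -2.11 (0.508) and Eomes at -0.69 (0.329). Evx1 had 1 count in the 3 AFX samples and 37 in the 3 AF samples, a ratio of pooled CPM of 43.1 with a 95% exact interval of 7.26 to 1750 that covers counting error only. Feeder markers were lower in AFX as well, with 6 of 7 called lower and 1 higher, as were 2 of 5 extraembryonic ectoderm markers and 1 of 3 visceral endoderm markers, and their part was not tested.

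Between FS and AFX, with both FS lines as 1 group, 0 of the 8 tested genes were called by edgeR's quasi-likelihood test or by DESeq2's Wald test, and 3 had an unadjusted p under 0.05 in edgeR. With FS2 alone against AFX edgeR called 4 (T, Gsc, Foxa2 and Lhx1), with FS1 alone 0, and with the lines as separate groups 1 (Foxa2). In either direction 8.7% of all genes were called. Lhx1 was at -2.89 ± 1.09 (adjusted p = 0.148), Foxa2 at -2.48 ± 0.95 (0.151), Gsc at -2.35 ± 0.96 (0.17), T at -1.17 (0.675) and Eomes at -0.47 (0.429). These rest on single libraries: without AFX passage 16 Gsc was at 0.16 (0.958), and without FS1 passage 10 Lhx1 was called at -4.44 (0.0264) and T at -3.64 (0.0424). Over all fits without 1 sample Lhx1 ran from -4.44 to -1.21, with adjusted p up to 0.685. FS against AF shares its FS samples with this comparison, and AFX against AF shares AF or AFX samples with both, so the 3 are not independent.

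**Figure D3:**
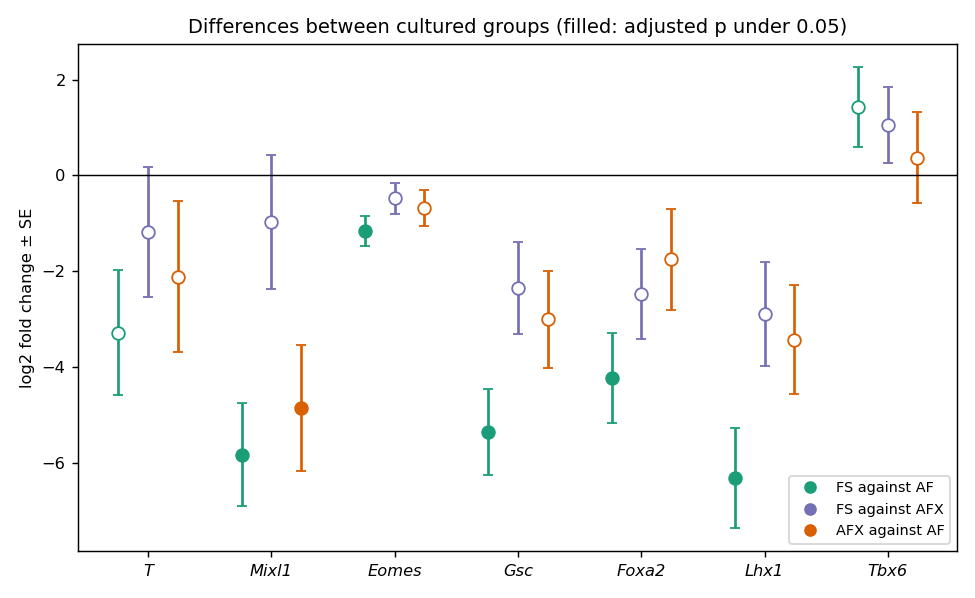
Log2 fold change with its SE (bars) of 7 of the 9 genes in FS against AF, FS against AFX and AFX against AF; filled points have an adjusted p under 0.05. Filled points are Mixl1, Eomes, Gsc, Foxa2 and Lhx1 in FS against AF and Mixl1 in AFX against AF; the 3 comparisons share samples, and Evx1 and Mesp1 are left out for low counts.

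Within FS cells 1 sample stood above the others. FS1 passage 10 was the highest of the 6 FS samples for 9 of the 9 genes and for 16.1% of 14729 genes compared. That share leaves out genes with few counts. Mixl1, Gsc and Evx1, with 17, 50 and 24 counts over the 6 FS samples, would be left out. Of all FS counts passage 10 of FS1 held 83.0% for T, 98.5% for Mesp1, 69.9% for Lhx1, 52.2% for Tbx6 and 100% for Evx1, but 19.4% for Eomes. Without it the FS mean of T was 1.11 in place of 6.05 CPM, that of Mesp1 0.0162 in place of 1.13, that of Lhx1 0.464 in place of 1.36 and that of Tbx6 0.927 in place of 1.77. Visceral endoderm, extraembryonic ectoderm and feeder markers summed to no more than 14.2, 6.58 and 67.9 CPM in any FS sample. FS1 passage 10 was also highest for the signal antagonists, at 104.9 CPM in sum against 6.575 to 27.65 in the other 5 FS samples. Of that sum Fst alone made up 62.3 CPM. Passage 10 was highest as well for the streak-inducing signals, at 92.85 against 24.3 to 47.5, and for later mesoderm and streak genes, at 101.1 against 54.5 to 63.5. For endoderm genes it was not the highest, at 4.21 CPM against 7.78 in FS1 passage 11 and 4.46 in FS2 passage 16.

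FS2 lay below FS1 in all 3 samples for Gsc, at 0.160, 0 and 0.343 CPM against 1.60, 1.32 and 1.22, and for Mixl1. Of the 9 genes these 2 did not overlap, and 13.2% of all genes lay lower in FS2 in the same way. With the filter on low counts and all cultures fitted together, 0 members were called between the lines by edgeR or DESeq2, 3 had an unadjusted p under 0.05 in edgeR, and 3.85% of all genes were called in either direction. With no filter on low counts edgeR called 7 of 9, T at an adjusted p of 2.14e-41, and with the lines fitted alone it called 1, Gsc (0.0293). In the unfiltered fit the SE of T was 0.285, against 1.58 with the filter, at nearly the same fold change. FS1 passage 10 held 90.3% of the FS1 counts of T, so that p-value understates the spread between passages. With the filter, Gsc was at -2.74 ± 1.36 (adjusted p = 0.337), T at -3.99 (0.23), Lhx1 at -3.24 (0.396), Foxa2 at -2.44 (0.293), Tbx6 at -1.71 (0.256) and Eomes at -0.27 (0.793). Over fits without 1 sample T ran from -7.65 to -1.27, Lhx1 from -4.58 to -1.56 and Tbx6 from -2.19 to -0.39. FS1 passage 10 held 79.5% of the FS1 counts of Lhx1 and 74.1% of those of Tbx6. Mixl1 was at -3.04 ± 2.1 (0.515), and its 15 counts in FS1 against 2 in FS2 gave a ratio of 9.68 (95% exact interval 2.25 to 87.2, counting error only). Mesp1 and Evx1 had no count in FS2, and against 3 counts per sample their FS1 means were at least 9.38-fold and at least 3.32-fold higher, all but 1 count of them from passage 10.

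In epiblasts the mean levels of Gsc, Foxa2, Mixl1 and Eomes were lowest at E5.5, that of Lhx1 was high only at E5.0, and that of T was highest at E6.0. Lhx1 was at 21.6, 14.6 and 10.2 CPM in the E5.0 embryos 1, 2 and 4. It was at 1.01, 1.26 and 1.78 CPM at E5.5 and at 0.263, 1.84 and 0.9745 CPM at E6.0. Its log2 fold change was -3.54 ± 0.54 from E5.0 to E5.5 (adjusted p = 0.00212) and -3.91 ± 0.55 from E5.0 to E6.0 (0.000221), both without overlap and both called in each of the 6 fits without 1 embryo. Visceral endoderm markers fell over the same stages, with 8 of 10 tested called lower at E5.5 than at E5.0 and 10 of 10 at E6.0, and extraembryonic ectoderm markers summed to 12.3 to 59.8 CPM at E5.0. The part of other cell types in the E5.0 levels of Lhx1, Gsc, Foxa2 and Eomes, all also visceral endoderm genes, was not tested.

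Gsc was at 3.925, 2.43 and 2.36 CPM at E5.0, at 0.224, 0.572 and 0.844 CPM at E5.5 and at 6.30, 11.1 and 6.50 CPM at E6.0, so that no 2 stages overlapped. It fell from E5.0 to E5.5 by 2.41 ± 0.57 (adjusted p = 0.0226) and rose from E5.5 to E6.0 by 3.79 ± 0.57 (0.00163). The fall missed the threshold in 3 of 6 fits without 1 embryo, which were E5.0 embryo 1 (0.0512), E5.5 embryo 1 (0.0781) and E5.5 embryo 2 (0.0782), while the rise stayed past it in all 6. From E5.0 to E6.0 Gsc was at 1.38 ± 0.49 (0.0615).

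Foxa2 was at 9.81, 3.93 and 7.33 CPM at E5.0, at 1.57, 1.60 and 0.0937 at E5.5 and at 5.52, 17.6 and 2.49 at E6.0. The E5.5 embryos lay below all others, with log2 fold changes of -2.75 ± 0.85 from E5.0 (adjusted p = 0.0803) and 2.96 ± 0.85 to E6.0 (0.0791), and the second was called without E6.0 embryo 3 (3.40, 0.0416). Eomes was at 81.8, 76.3 and 43.6 CPM at E5.0, at 37.1, 18.99 and 45.75 at E5.5 and at 98.2, 189.2 and 70.8 at E6.0. All E6.0 embryos lay above all E5.5 embryos, at 1.79 ± 0.47 (0.0891). Mixl1 was at 3.435, 2.62 and 6.97 CPM at E5.0 and 0.336, 0.114 and 1.31 at E5.5, at -2.87 ± 1.25 (0.202). At E6.0 it was at 0.657, 10.4 and 0.2165 CPM, so 94.4% of its E6.0 counts came from embryo 2. Its difference from E5.5, 2.60 with that embryo (0.296), was -0.47 without it.

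T had 1 count in the 3 E5.0 embryos, was at 0.895, 0.343 and 0.281 CPM at E5.5 and was at 3.28, 14.3 and 0.325 CPM at E6.0. Its pooled CPM ratio of E6.0 over E5.0 was 149 (95% exact interval 26.3 to 5900, counting error only), and 85.3% of the E6.0 counts were from embryo 2. Evx1 was at 0.123, 2.24 and 1.42 CPM at E5.0, at 1.79, 0 and 0.0937 at E5.5 and at 3.68, 11.9 and 0.325 at E6.0, with a log2 fold change of 3.04 from E5.5 to E6.0 (adjusted p = 0.303). Evx1os followed at E6.0 with 3.94, 7.46 and 0.650 CPM. Mesp1 was counted in the E6.0 group only in embryo 2, with 17 counts, and Tbx6 stayed between 0 and 2.46 CPM in all 9 epiblasts. E6.0 embryo 2 was the highest of its group for 8 of 9 genes, Tbx6 being the exception, and for 32.4% of 13278 genes compared. That share leaves out genes with few counts, and Mesp1 and Tbx6 would be left out in the same way.

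Among epiblasts 6 of the 9 genes could be tested over 14228 genes; T, Mesp1 and Tbx6 did not pass the filter. From E5.0 to E5.5, 2 were called lower (Gsc and Lhx1), beside 3.75% of all genes, and 4 of 9 lay lower without overlap (Mixl1, Gsc, Foxa2 and Lhx1), beside 10.1%. T alone lay higher without overlap, on 1 count at E5.0 and 14 at E5.5, beside 14.4%. The shares without overlap are over tested genes only, and T was not one of them. From E5.5 to E6.0, 1 was called higher (Gsc), beside 1.89%, and 3 lay higher without overlap (Eomes, Gsc and Foxa2), beside 16.2%. From E5.0 to E6.0, 1 was called lower (Lhx1), beside 11.6% called and 16.4% lower without overlap, while T and Gsc lay higher without overlap, beside 22.9%. With no filter on low counts edgeR also called Foxa2 (1.77e-05) and Mixl1 (0.00319) from E5.0 to E5.5, and Foxa2 (2.03e-06), T (0.00109), Evx1 (0.0104) and Mixl1 (0.0113) from E5.5 to E6.0, and T (1.07e-07) from E5.0 to E6.0. The stages share embryos between these comparisons, so a low E5.5 level enters both neighbouring ones.

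**Figure D4:**
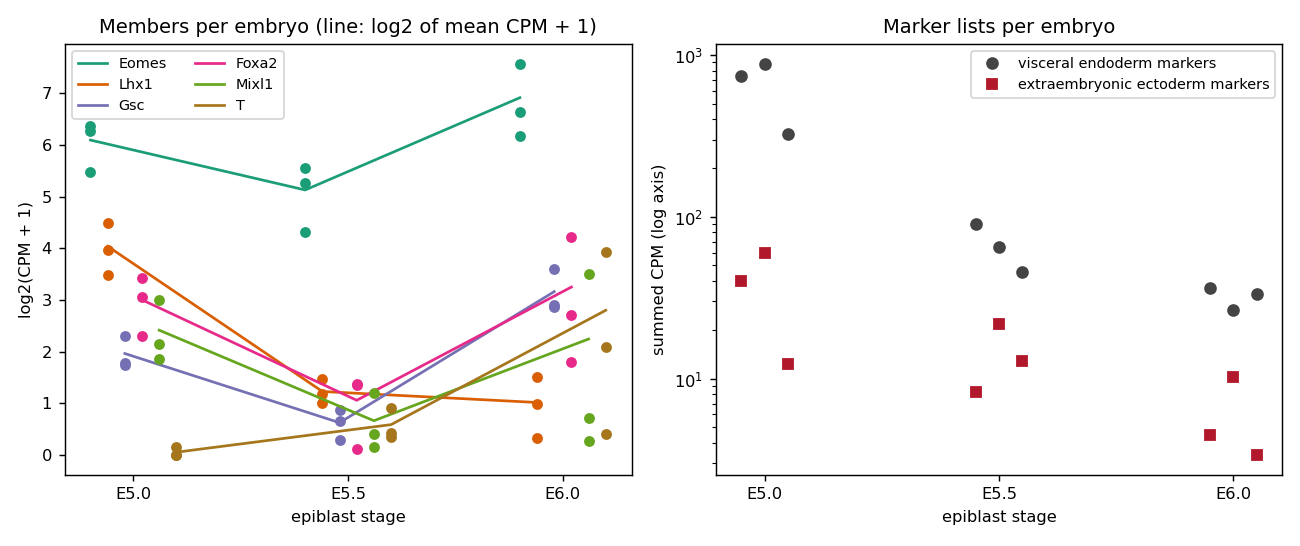
Left, log2(CPM + 1) of 6 of the genes in each embryo (points) at E5.0, E5.5 and E6.0, with lines joining the log2 of the stage means + 1; right, summed CPM (log axis) of the visceral endoderm and extraembryonic ectoderm markers in the same embryos. Gsc and Foxa2 are lowest at E5.5, Lhx1 is high at E5.0 alone, and visceral endoderm markers go from 326 to 885 CPM at E5.0 to 26.7 to 36.4 CPM at E6.0.

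Set beside the E6.0 epiblasts, FS cells had less Gsc, Eomes, Mixl1 and Evx1. Gsc fell by 3.39 ± 0.76 on the log2 scale (adjusted p = 0.00193) and Eomes by 1.63 ± 0.37 (0.00226), both with all 6 FS samples below all 3 embryos and both called in every fit without 1 sample. Mixl1 was at -3.82 ± 1.2 (0.0182) and Evx1 at -3.77 ± 1.31 (0.0291). Without E6.0 embryo 2, Mixl1 was at -0.68 (0.772) and Evx1 at -2.34 (0.257), and Evx1 also missed the threshold, at 0.0511 to 0.0528, when any of the 3 FS2 samples was left out. The Evx1 call was also lost with no filter on low counts (0.0794) and by DESeq2's Wald test (0.119), and without FS1 passage 10 no FS count of Evx1 was left. These 4 of 8 tested genes stood beside 18.9% of 16614 genes called lower, and the 2 without overlap beside 20%. Foxa2 was at -1.33 (0.275). Of the marker lists, 7 of 11 visceral endoderm markers, 2 of 6 extraembryonic ectoderm markers, 1 of 7 feeder markers and 5 of 8 epiblast genes were also called lower in FS than at E6.0. Called higher in FS were 1 extraembryonic ectoderm and 2 feeder markers, and the part of these lists was not tested.

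AF cells had more Lhx1 than E6.0 epiblasts, at 6.51 ± 1.24 (adjusted p = 0.000852), called in all 6 fits without 1 sample. It was the only one of 8 tested genes called, beside 18.1% of all genes called higher. Of the 9 genes, 3 lay above all embryos in all AF samples (Gsc, Foxa2 and Lhx1), beside 27.7%. Foxa2 was at 2.88 ± 1.09 (0.0512) and called without E6.0 embryo 2 (at 4.0, 0.0421), as was Mixl1 (5.11, 0.0194), which was at 1.98 (0.225) with it. Gsc was at 1.95 ± 0.82 (0.0747) and T at 3.23 ± 1.53 (0.114). In AF against E6.0, 5 of 7 feeder markers, 5 of 5 endoderm genes and 2 of 6 extraembryonic ectoderm markers were called higher, and of 11 visceral endoderm markers 1 was called higher (Gata4) and 1 lower (Apoa4). Of 8 epiblast genes 6 were called lower. Their part was not tested. In AFX against E6.0, 1 of 8 tested genes was called, Evx1, which was lower, beside 15.8% of all genes called lower and 25.1% lower without overlap. It had 1 count in AFX and 167 in E6.0, a ratio of 206 (95% exact interval 36.4 to 8180, counting error only). Embryo 2 held 81.4% of the E6.0 counts of Evx1, and without it the E6.0 mean was 2.001 in place of 5.31 CPM. The Evx1 call was lost with no filter on low counts (0.0645), and no member was called without E6.0 embryo 2 or without AFX passage 14. Lhx1 lay higher without overlap, beside 28%, at 3.08 ± 1.18 (0.0574), and was called without AFX passage 15 (3.50, 0.0477). Over the 6 fits without 1 sample Lhx1 ran from 1.40 to 3.83, with adjusted p up to 0.418. AFX passage 16 held 79.6% of its AFX counts. Eomes was at -1.17 ± 0.44 (0.0536) and Gsc at -1.06 (0.35). Without AFX passage 16 both were called lower, Eomes at -1.46 (0.0466) and Gsc at -3.57 (0.00306), and Eomes also without E6.0 embryo 3 (-1.43, 0.0346). Between AFX and E6.0, 5 of 11 visceral endoderm markers were called lower, of 7 feeder markers 4 were called higher and 1 lower, and 5 of 8 epiblast genes were called lower. Their part was not tested.

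Over the 12 cultured samples several pairs of these genes had a high correlation. Pearson's r on log2 CPM was 0.951 for T with Foxa2, 0.951 for Gsc with Lhx1, 0.935 for Foxa2 with Lhx1, 0.888 for T with Lhx1 and 0.877 for Mixl1 with Gsc. Over all 21 samples T with Lhx1 was at 0.523, and at E5.0 Lhx1 was high while T was near 0. The points share libraries and are passages of few lines, and the AF samples sit high in most pairs, so these values are descriptions. Within AFX, T was lowest at passage 16, where Gsc, Foxa2 and Lhx1 were highest. T with Tbx6 was at 0.0432 in culture.

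Among 12161 other genes, those whose log2 CPM went most closely with each member over the 21 samples were Smyd2 (r = 0.912), Lgr5 (0.903) and Rspo3 (0.899) for T, and Epha2 (0.876) and Fzd10 (0.814) for Mixl1. For Eomes they were Relt (0.818), Mpp6 (0.779) and Trim59 (0.737), and for Gsc they were Agpat3 (0.896), Tmem63a (0.877) and Nudt3 (0.876). Foxa2 had Ntn1 (0.89), Arid3b (0.876) and Adamts9 (0.875), and Lhx1 had Adamts9 (0.949), Dgkk (0.925) and Cyp26a1 (0.918). Evx1 had Myo1d (0.788), Sp5 (0.714) and Sdha (0.702), Mesp1 had Mroh2b (0.795), and Tbx6 had Tpcn2 (0.81). Evx1 and Mesp1 were at or below 3 counts in 12 and 19 of the 21 samples, and their values rest on the few samples with more.

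The other genes of the streak network gave a context for the FS and AF difference. Of 8 tested streak-inducing signals and coreceptors, 3 were lower in FS and 1 was higher: the NODAL coreceptor Tdgf1 was at -5.82 (adjusted p = 0.000548), Nodal at -3.02 (0.0231) and Bmp4 at -2.17 (0.000103), while Fgf4 was at 1.30 (0.0343). Of 7 signal antagonists, 6 were lower, led by Cer1, Lefty1 and Lefty2 at -6.87, -6.57 and -6.19, and of 5 endoderm genes all 5 were, from Hhex at -3.42 to Sox17 at -7.27. Of 8 signal effectors, such as Smad2, Foxh1 and Ctnnb1, 0 were called by edgeR, 2 had an unadjusted p under 0.05 and the median log2 fold change was 0.05. Of 5 tested later mesoderm and streak genes 1 was lower, Cdh2 at -1.30 (0.00268). In AFX against AF, 2 of 8 signals were lower (Tdgf1 at -3.24 and Bmp4 at -1.73), 0 of 7 antagonists were called by edgeR with 3 at an unadjusted p under 0.05, and 3 of 5 endoderm genes were lower (Gata6, Hhex and Sox17). From E5.5 to E6.0, beside the rise of Gsc, Nodal rose by 0.83 on the log2 scale (0.0498) and Snai1, a repressor of epithelial genes in the streak, by 2.75 (0.00781), while Fgf4 was at -1.99 and Gdf3 at -2.78. The antagonist Fst was at 3.33 (0.00314) there. In AFX against AF the effector Foxh1 was at 0.61 (0.0124). Between the FS lines 2 of 8 signals were higher in FS2, Gdf3 at 4.43 (1.95e-05) and Fgf4 at 1.22 (0.0146). From E5.0 to E5.5, 2 of 8 effectors were called, Lef1 at -1.44 (2.29e-05) and Tcf7l1 at 0.73 (0.00508), and Cdh2 of the later streak genes was at -1.79 (0.00391). The counts of these lists were not refitted without single samples.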

How the data were processed

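The authors deposited a raw count for each gene and sample; per the submitters' processing notes these come from reads trimmed with Trim Galore, aligned with TopHat2 2.1.0 to mm10 and counted with featureCounts 1.5.0. The annotation and the strand setting are not given in the sources used here. Counts were grouped by sample title. CPM scales each count to its sample's TMM effective library size, and RPKM divides it by the exon union of GENCODE M21. Tests were edgeR 4.0.16 quasi-likelihood fits (R 4.3.3, TMM, filterByExpr, robust) over all genes passing the filter. Separate fits were made for cultured cells and for epiblasts. Cultures were set against E6.0 in a fit of all 21 samples, E5.0 and E5.5 included. The FS lines were compared in a further fit of the cultured cells with FS1 and FS2 as separate groups. P-values had Benjamini-Hochberg adjustment over all genes tested, with calls at adjusted p under 0.05. The method was tested on simulated data. DESeq2 1.42.0, other filters and scalings, the lines singly, replicate blocks and fits without 1 sample were alternatives. Leaving out the 5 most abundant loci was added after seeing the data. Ratios with 1 to 3 counts on a side carry 95% exact binomial intervals (scipy 1.17.1). Other genes are named by 2 rules. From 9 lists, single called genes are given where up to 5 were called, otherwise the 3 largest fold changes, for the lists and comparisons the text gives. For each member, up to 3 genes with the highest r on log2 CPM (prior count 2, at least 5 CPM in a group) are given, and 1 item is not reported here. The members and lists were chosen with earlier results of these data known. Over all genes, same-numbered samples deviated little together (r from -0.134 to 0.205), and the samples were fitted as unpaired. A correlation over all genes cannot exclude a pairing for the 9 genes. Passage 16 was the highest AF sample for 6 of them and the highest AFX sample for 7. P-values of the filtered fits measure the spread between these passages and embryos. With no filter on low counts some SEs were far smaller, and those p-values can understate it.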

Additional observations from a re-analysis of the deposited data

Results flagged for a closer look

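In the 6 FS samples, passage 10 of line FS1 stood apart for 5 of the 9 genes. The gap from this sample to the next, as a share of the whole range in CPM, was 0.887 for T, 0.763 for Lhx1, 1.0 for Evx1, 0.988 for Mesp1 and 0.782 for Tbx6, above Dixon's 95% critical value for 6 samples. For normally distributed values chance gives such a gap in about 1 in 20 groups; these values are skewed, near the floor and from both lines, so that rate does not hold here. The next highest FS samples were at 3.47 CPM for T and 1.56 CPM for Tbx6, both FS1 passage 11, against 30.75 and 6.01 CPM in passage 10. The labels give passage 10 no treatment or batch of its own, and no cause was tested.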

How the results depend on the processing

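Of the refitted fold changes of single genes, 653 kept their direction and their side of the threshold, 25 lost the call, 54 gained it and 2 reversed. The reversed ones were Gsc in FS against AFX, at 0.16 without AFX passage 16 (-2.87 to 0.16 over fits without 1 sample), and Mixl1 in E6.0 against E5.5, at -0.47 without E6.0 embryo 2 (-0.47 to 3.97). The number of members called changed by over 1.5 times as follows, and the causes were not tested beyond the samples or genes each setting removes. With no filter on low counts it was 0 in AFX against AF (1 with the filter), 7 in FS2 against FS1 (0), 4 in E5.5 against E5.0 (2), 5 in E6.0 against E5.5 (1), 2 in E6.0 against E5.0 (1) and 0 in AFX against E6.0 (1). With the compared groups fitted alone it was 2 in AFX against AF, 1 in FS2 against FS1, 1 in E5.5 against E5.0, 2 in E6.0 against E5.0, 2 in FS against E6.0 (4 in the joint fit), 3 in AF against E6.0 (1) and 0 in AFX against E6.0. DESeq2's Wald test gave 3 in E6.0 against E5.5, 2 in E6.0 against E5.0, 2 in AF against E6.0 and 3 in AFX against E6.0, and DESeq2 size factors gave 2 in AF against E6.0. Fits without robust estimation gave 2 in AFX against AF, 2 in E6.0 against E5.5, 2 in AF against E6.0 and 3 in AFX against E6.0. With the FS lines as separate groups there were 1 in FS against AFX and 3 in AFX against AF. FS2 alone gave 4 against AFX, and FS1 alone gave 2 against E6.0. Without the 5 most abundant loci, 2 were called in AFX against E6.0.

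With a replicate block of passage number 4 members were called in AFX against AF. With a replicate block of embryo number 1 was called in E5.5 against E5.0 and 2 in E6.0 against E5.5. Whether equal numbers pair the samples was not settled. Leaving out 1 sample at a time gave 3 to 6 calls in FS against AF, 0 to 2 in FS against AFX, 0 to 1 in AFX against AF, 0 in FS2 against FS1, 1 to 2 in E5.5 against E5.0, 1 to 3 in E6.0 against E5.5, 1 to 2 in E6.0 against E5.0, 2 to 4 in FS against E6.0, 1 to 3 in AF against E6.0 and 0 to 2 in AFX against E6.0. Where 3 counts stand for up to 0.561 CPM, differences of Mesp1 between most samples were not detectable at this depth.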
